A study of Mus musculus with 15 samples.

Results

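Medulloblastomas labelled S-type were compared between mice given 0.2 Gy of X-rays (tumours MB4, MB5 and MB6) and mice given none (MB1, MB2 and MB3), on 6 of the 15 arrays of the series. All 6 tumours arose in Ptch1+/- mice on a C3B6F1 background, so both groups carry the same germline mutation. The treated mice were irradiated on postnatal day 1, all mice were watched until moribund, and the RNA of each tumour was hybridised to 1 one-colour Agilent array. The ages in the labels, which carry no unit, were 128, 133 and 135 at 0.2 Gy and 160, 173 and 172 at 0 Gy, so dose and age cannot be told apart. MB6 came from a male and the other 5 mice were female. The labels do not say what S-type and R-type stand for. The R-type tumours, of the same genotype and strain after 0.2 Gy (n = 3) and 1.5 Gy (n = 3), and the 3 normal cerebella, whose genotype the labels do not give, entered the fit to estimate the spread of each gene and are quoted only as levels. All mice of these groups were female, and the R-type mice were irradiated on postnatal day 1 too. Their age labels were 127, 106 and 113 (R-type, 0.2 Gy), 87, 101 and 103 (R-type, 1.5 Gy) and 103, 103 and 113 (normal cerebellum). Every R-type age was below every S-type age, so type and age cannot be told apart either.

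Ptch1 is the receptor that holds the sonic hedgehog (SHH) pathway in check, and mice that inherit 1 working copy can develop medulloblastoma from the granule neuron precursors of the cerebellum. These precursors divide in the outer layer of the cerebellum after birth under the drive of SHH, switch on Gli1 and Mycn, and leave the cycle to become granule neurons. X-rays given to newborn Ptch1+/- mice meet these precursors while they divide, and radiation is known to raise the number of tumours in such mice. The comparison asks whether tumours of the same type that arose after a low dose differ in expression from those that arose with none.

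A level is given throughout as the log2 processed signal of a probe less the 75th percentile of its array, so that 0 is a fairly bright probe and lower values are dimmer. A change is the mean level at 0.2 Gy minus that at 0 Gy. With 1 probe for each gene, 21661 genes were well above background on at least 3 of the 15 arrays and were tested with limma, and genes with an adjusted p (Benjamini-Hochberg) below 0.05 are called changed. On the 6 arrays 59.1% to 66.5% of probes were well above background, the lowest share being that of MB6 at 0.2 Gy and MB3 at 0 Gy, and no spot was saturated. The number of arrays limits the precision. The p-values rest on the spread between mice within all 5 groups, R-type tumours and normal cerebella included, and not on the S-type tumours alone.

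The tissue showed the markers that its label implies. Atoh1, the transcription factor that defines granule neuron precursors, stood at 2.92, 2.65 and 1.78 in MB4, MB5 and MB6 and at 2.66, 1.58 and 3.19 in MB1, MB2 and MB3, against −7.62 ± 0.06 (SD, n = 3) in normal cerebellum. Mki67, a protein of dividing cells, was at 5.90, 5.82 and 5.59 in MB4, MB5 and MB6 and at 5.79, 5.50 and 5.83 in MB1, MB2 and MB3, against −4.16 ± 1.01 (SD, n = 3) in normal cerebellum. The Y-linked genes Eif2s3y, Kdm5d and Ddx3y were well above background in MB6 and in none of the other 5 tumours, as the labelled sexes have it. Xist, the RNA that coats the silenced X chromosome of female cells, was at −0.70, −0.03 and −7.14 in MB4, MB5 and MB6 and at −1.43, 1.27 and −4.21 in MB1, MB2 and MB3, so that the labelled female MB3 had a low level.

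Few differences in expression were detected between the S-type tumours of the irradiated and those of the unirradiated mice. Of 21661 genes, 1 was called, which is 0.00462% of them: Zic2, a zinc-finger transcription factor of granule neuron precursors, was lower at 0.2 Gy. No gene was called higher, 0.0% of those tested. Without adjustment 1245 genes had p below 0.05, which is 5.75% of the genes tested (618 higher, 2.85%, and 627 lower, 2.89%), and 273 had p below 0.01, 1.26%.

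The estimated change was small for most genes, though its interval was not narrow for all of them. The median change over all genes was −0.0005 and the median size of a change was 0.11 on the log2 scale. For 17149 genes (79.2%) the 95% interval of the change lay within 1 log2 unit of 0 on either side, and for 10538 genes (48.6%) within 0.5. A change of at least 1 log2 unit in size was estimated for 517 genes, 2.39%, and the 2 groups did not overlap for 1820 genes, 8.4%.

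Across all tested genes, the Pearson correlation between tumours was 0.981 to 0.991 among the 0.2 Gy tumours, 0.970 to 0.983 among the 0 Gy tumours and 0.971 to 0.988 between the groups. The genes are not independent replicates, and these values describe only how alike the tumours were. MB1 at 0 Gy was closer to MB4 (0.988) and MB5 (0.987) at 0.2 Gy than to either tumour of its own group (0.975 with MB2 and 0.983 with MB3). The tumours at 0.2 Gy were more alike than those at 0 Gy: the median SD of a gene was 0.16 at 0.2 Gy and 0.24 at 0 Gy, and the SD was the larger at 0.2 Gy for 29.9% of genes.

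**Figure D1:**
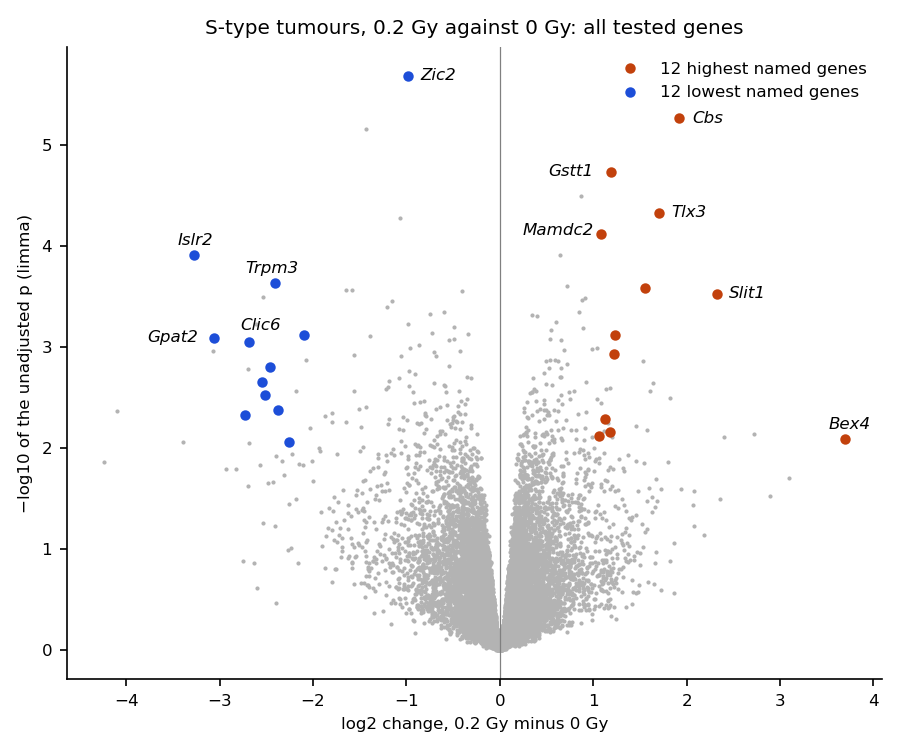
Each grey point is 1 of the 21661 tested genes, with the log2 change (0.2 Gy minus 0 Gy) on the x axis and −log10 of the unadjusted limma p on the y axis; orange and blue mark the 12 highest and 12 lowest named genes. Zic2 has the smallest p and is the only gene with an adjusted p below 0.05 (0.0447); Bex4 has the largest change among the named genes with a modest p (0.00819).

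Zic2, on chromosome 14, was at −1.22, −1.18 and −1.27 in MB4, MB5 and MB6, against −0.06, −0.23 and −0.43 in MB1, MB2 and MB3. All 3 tumours at 0.2 Gy were lower than all 3 at 0 Gy, and the spread was narrower at 0.2 Gy (SD 0.05) than at 0 Gy (SD 0.19). Zic2 fell by 0.99 on the log2 scale (SE 0.11, 95% interval −1.24 to −0.74), which is a ratio of 0.505, with an adjusted p of 0.0447 in limma. On the slides that held both doses the difference was −1.05 (MB6 minus MB2) and −1.12 (MB5 minus MB1).

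The call of Zic2 stood close to the threshold. Its adjusted p in limma was 0.0205 to 0.0448 under normexp, quantile normalization, the series table and the filter on all 6 arrays. The call was lost when MB2 (0.0699), MB4 (0.116), MB5 (0.0707) or MB6 (0.248) was left out, with slide as a block (0.168), with only the 12 tumour arrays (0.167) or the 6 S-type arrays (1.0), with array weights (0.0702), without scaling (0.0736) and without a filter on dim probes (0.0924). The change itself stayed between −1.08 and −0.90 in all of these settings. Zic2 is represented by 1 probe above background, so no other probe checks it. For its relatives Zic1 and Zic4, named here after their values were seen, the change was −0.11 (adjusted p 0.979) and −0.05 (0.999) in limma.

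Beside the S-type tumours, Zic2 averaged −1.22 ± 0.05 at 0.2 Gy and −0.24 ± 0.19 at 0 Gy, against −1.03 ± 0.19 in R-type tumours after 0.2 Gy, −0.999 ± 0.016 in R-type tumours after 1.5 Gy and 0.99 ± 0.12 in normal cerebellum (SD, n = 3 each). The S-type tumours at 0.2 Gy thus had a level near that of both R-type groups, and those at 0 Gy lay between the other tumours and normal cerebellum. No test was made across these groups.

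Zic2 and the 23 genes of largest change among those with an unadjusted p below 0.01 and non-overlapping groups are described next. None of the 23 passed the adjusted test, and their p and their non-overlap were what chose them. MB1 was the 0 Gy tumour nearest to the mean at 0.2 Gy for 15 of the 24 genes, Zic2 included, MB2 for 8 and MB3 for 1. With MB1 left out, 17 genes were called in limma, 8 higher and 9 lower, among them Cbs, Mamdc2, Mr1 and Ralgapa2 (higher) and Zic2, Islr2, Shtn1, Atp2b2, Folr1 and Ttr (lower).

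Among transcription factors, Tlx3 had the largest positive change. Tlx3 is a homeobox gene that specifies glutamatergic neurons in the dorsal spinal cord of the mouse. Its level was −1.31, −0.65 and −0.67 in MB4, MB5 and MB6, against −2.75, −2.05 and −2.94 in MB1, MB2 and MB3. Every tumour at 0.2 Gy was above every tumour at 0 Gy. The change was 1.70 (SE 0.27, 95% interval 1.11 to 2.30), but the adjusted p was 0.164 in limma and ranged from 0.0699 to 1.0 over the alternative settings. The R-type tumours had −0.48 ± 0.27 after 0.2 Gy and −0.26 ± 0.43 after 1.5 Gy, and normal cerebellum −2.41 ± 0.07 (SD, n = 3 each).

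Among metabolic enzymes, Cbs and Gstt1 came next to Zic2 in rank. Cbs, cystathionine beta-synthase, joins homocysteine and serine on the way to cysteine; its level was −4.92, −5.26 and −4.76 in MB4, MB5 and MB6, against −6.63, −6.92 and −7.16 in MB1, MB2 and MB3. The 0 Gy values were not well above background in any tumour, so Cbs was at least 1.36-fold higher at 0.2 Gy, with an adjusted p of 0.0502 in limma that lies just outside the threshold. Over the alternatives that p ranged from 0.0205 to 0.94. Cbs averaged −4.13 ± 0.35 and −4.49 ± 0.48 in R-type tumours after 0.2 Gy and 1.5 Gy, and −1.39 ± 0.15 in normal cerebellum (SD, n = 3 each).

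Gstt1, a glutathione transferase of the theta class, was at −2.29, −1.79 and −2.35 in MB4, MB5 and MB6, against −3.49, −3.12 and −3.37 in MB1, MB2 and MB3. The groups did not overlap. The change was 1.19 (SE 0.17), with an adjusted p of 0.0996 in limma. Its mean was −1.70 ± 0.12 and −1.42 ± 0.26 in R-type tumours after 0.2 Gy and 1.5 Gy and −1.88 ± 0.15 in normal cerebellum (SD, n = 3 each), so the 0 Gy tumours had the lowest mean of the 5 groups.

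Genes of axon growth and cell contact stood on both ends. Slit1, a secreted ligand of Robo receptors that repels growing axons, was at −2.07, −0.77 and −1.70 in MB4, MB5 and MB6, against −3.14, −4.29 and −4.08 in MB1, MB2 and MB3 (change 2.32, SE 0.46, adjusted p 0.359 in limma). Islr2, a membrane protein of growing axons, was at −2.06, −3.69 and −3.81 at 0.2 Gy, against −1.34, 0.72 and 0.89 at 0 Gy (change −3.28, SE 0.58, adjusted p 0.267 in limma). MB4 and MB1 were the nearest pair across the doses, while MB2 and MB3 were far higher than every tumour at 0.2 Gy.

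The same split within the 0 Gy group, with MB1 near the 0.2 Gy tumours and MB2 and MB3 high, held for 3 further neuronal genes. Shtn1, which couples actin to adhesion in outgrowing axons, was at 0.60, −0.31 and 0.53 in MB4, MB5 and MB6, against 0.94, 3.12 and 3.05 in MB1, MB2 and MB3. Slitrk6, a synaptic adhesion protein, was at −2.70, −3.98 and −3.55 at 0.2 Gy, against −2.66, 0.21 and 0.39 at 0 Gy. Syt4, a synaptotagmin of secretory vesicles, was at −2.28, −2.66 and −3.86 at 0.2 Gy, against −1.42, −0.19 and −0.06 at 0 Gy. None of the 3 passed (adjusted p 0.432, 0.671 and 0.671 in limma).

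The named genes held 3 that lie on the X chromosome. Bex4, of the brain-expressed X-linked family, had the largest positive change, 3.70, yet its SE was 1.16 and its adjusted p 0.759 in limma: it was at 3.65, 3.50 and 4.30 in MB4, MB5 and MB6, against −1.26, 3.49 and −1.86 in MB1, MB2 and MB3. MB2 at 0 Gy was thus level with the 0.2 Gy tumours, and only MB1 and MB3 were low. Xlr4b and Xlr3c belong to a family of near-identical X-linked copies, so that a probe may read several of them. Xlr4b was at 0.43, 1.35 and 0.39 at 0.2 Gy, against 4.16, 2.00 and 3.64 at 0 Gy, and Xlr3c at −0.43, 0.35 and −0.82 at 0.2 Gy, against 2.95, 0.96 and 2.56 at 0 Gy (changes −2.54 and −2.46, adjusted p 0.589 and 0.52 in limma). Both were lowest of the 0 Gy tumours in MB2, and the male MB6 lay beside the female MB4 for both.

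Gpat2, a mitochondrial acyltransferase of glycerolipid synthesis best known from testis, was at −1.42, −0.15 and 0.59 in MB4, MB5 and MB6, against 2.95, 1.95 and 3.31 in MB1, MB2 and MB3 (change −3.06, SE 0.68, adjusted p 0.432 in limma). Trpm3, a calcium-permeable channel, was not well above background in any tumour at 0.2 Gy and was above it in all 3 at 0 Gy, so it was at least 1.52-fold lower at 0.2 Gy (adjusted p 0.359). Edaradd, the adaptor of the ectodysplasin receptor, was at −6.73, −5.78 and −4.95 at 0.2 Gy, above background in 1 of 3, against −3.98, −4.22 and −1.70 at 0 Gy (adjusted p 0.606).

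The other named genes on the high side had changes between 1.06 and 1.55. Stom, the membrane scaffold protein stomatin, was at −0.75, 0.46 and −0.42 in MB4, MB5 and MB6, against −1.37, −2.08 and −1.92 in MB1, MB2 and MB3 (change 1.55, adjusted p 0.359). Mr1, which presents vitamin B metabolites to T cells, was at 0.04, 0.25 and 0.19 at 0.2 Gy, against −0.38, −1.80 and −1.04 at 0 Gy (change 1.23, adjusted p 0.432). Mamdc2, a matrix protein, was at −0.05, 0.30 and 0.26 at 0.2 Gy, against −0.48, −0.94 and −1.33 at 0 Gy (change 1.09, adjusted p 0.207). Ralgapa2, Dok7, Ephb4 and Cpxm2 had changes of 1.22, 1.18, 1.13 and 1.06 with adjusted p of 0.472, 0.731, 0.686 and 0.735; Ralgapa2 is a subunit of the Ral GTPase-activating complex, Dok7 activates the MuSK kinase at nerve-muscle contacts, and Ephb4 is an ephrin receptor of veins.

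**Figure D2:**
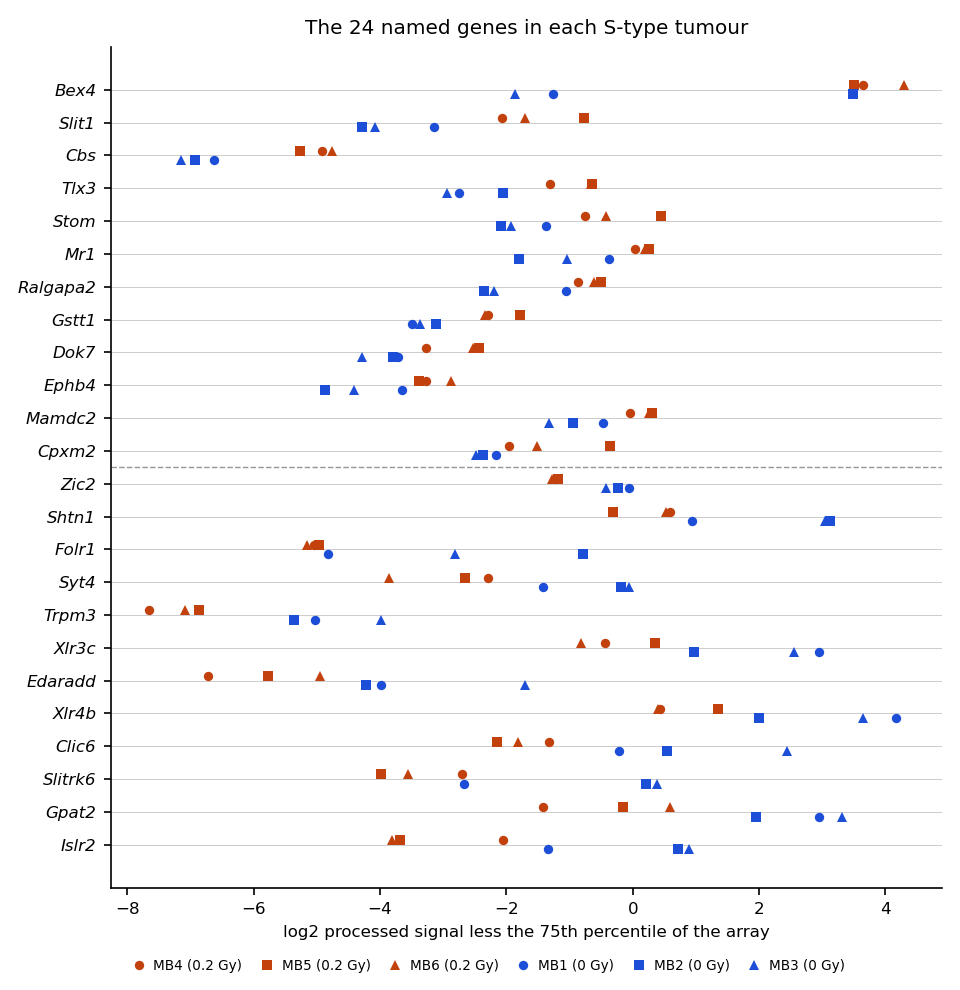
Levels (x axis, log2 processed signal less the 75th percentile of the array) of the 24 named genes in the 3 S-type tumours at 0.2 Gy (orange, upper points of each row) and at 0 Gy (blue, lower points). Zic2 values at 0.2 Gy lie between −1.27 and −1.18; in Islr2, Shtn1, Slitrk6 and Syt4 the 0 Gy tumour MB1 lies nearer to the orange points than MB2 and MB3 do.

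The pathways of tumour growth and of the radiation response were read as 23 lists of genes, beside 16 lists of cell type markers. Over both kinds 484 different genes were tested, 1 of them (Zic2) was called, and 50 had an unadjusted p below 0.05, 10.3%, against 5.75% of all genes. Of those 50, 23 were higher and 27 lower at 0.2 Gy. The members were chosen with earlier results known and many of them vary together, so these shares are a description. In 18 of the 39 lists no member had an unadjusted p below 0.05.

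SHH pathway genes were close between the groups. Of 16 tested members, 2 had an unadjusted p below 0.05, both higher at 0.2 Gy, and the median change was 0.04. Ptch1 itself was at −1.60, −1.76 and −2.08 in MB4, MB5 and MB6, against −1.54, −1.98 and −1.46 in MB1, MB2 and MB3 (change −0.15, SE 0.17, adjusted p 0.992 in limma); the groups overlapped, and the array cannot separate the 2 alleles. Gas1, a co-receptor that helps SHH bind Ptch1, was at 1.14, 1.18 and 1.00 at 0.2 Gy, against 0.71, 0.37 and 0.45 at 0 Gy (change 0.59, adjusted p 0.479), and Sfrp1, a secreted WNT antagonist that SHH tumours express, at 5.33, 5.43 and 5.03 at 0.2 Gy, against 4.98, 4.87 and 4.60 at 0 Gy (change 0.45, adjusted p 0.767). Gli1 and Mycn, the readouts of the pathway that were added as defining members, had changes of 0.07 (95% interval −0.41 to 0.55) and −0.03 (−0.22 to 0.17).

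Granule neuron precursor genes, Zic2 and Tlx3 included, had a median change of −0.13 over 18 members, with 1 higher and 2 lower at an unadjusted p below 0.05. Barhl1, a homeobox factor of these precursors, was at 3.80, 3.60 and 3.61 in MB4, MB5 and MB6, against 3.91, 3.81 and 4.41 in MB1, MB2 and MB3 (change −0.37, adjusted p 0.82). Barhl1 values did not overlap, though MB4 and MB2 were nearly level. Pax6, another of their transcription factors, overlapped between the groups (change 0.42, adjusted p 0.901), and Atoh1 had a change of −0.03 (95% interval −0.80 to 0.74).

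Proliferation genes had changes near 0. None of the 20 DNA replication genes or the 20 mitosis genes had an unadjusted p below 0.05; the medians were 0.04 and 0.06, the changes ran from −0.09 to 0.23 and from −0.05 to 0.28, and the interval of every one of these genes lay within 1 log2 unit. Mcm5, a subunit of the replicative helicase, was at 4.01, 3.80 and 3.69 at 0.2 Gy, against 3.75, 3.31 and 3.76 at 0 Gy. Ribosomal protein genes (16) had a median of 0.01 and changes from −0.10 to 0.14. The mean over the mitosis genes was 2.98, 2.92 and 2.67 in MB4, MB5 and MB6, against 2.84, 2.52 and 3.02 in MB1, MB2 and MB3, so the lowest and the highest tumour were both at 0 Gy.

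The p53 pathway, which radiation damage activates within hours, was close between the groups in tumours taken when the mice were moribund. Of 26 members 1 had an unadjusted p below 0.05: Btg2, a growth-restraining target of p53, was at 1.19, 1.01 and 1.15 in MB4, MB5 and MB6, against 1.64, 1.52 and 2.30 in MB1, MB2 and MB3 (change −0.70, SE 0.18, adjusted p 0.589). The list median was 0.07 and 24 of the 26 intervals lay within 1 log2 unit. Trp53 and Cdkn1a, the pathway's centre and its main cell cycle target, had changes of −0.01 (95% interval −0.26 to 0.24) and 0.29 (−0.38 to 0.96).

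The 19 DNA damage and repair genes had a median of 0.08 and changes from −0.26 to 0.30, every interval lying within 1 log2 unit. Fancc, a subunit of the Fanconi anaemia core complex, was the only member with an unadjusted p below 0.05: it was at −0.29, −0.18 and −0.19 at 0.2 Gy, against −0.39, −0.61 and −0.55 at 0 Gy (change 0.30, SE 0.12, adjusted p 0.832). Atm, the kinase that senses double-strand breaks, had a change of 0.17 (95% interval −0.01 to 0.35).

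Among 14 apoptosis regulators, 2 were higher and 2 lower without adjustment. Bcl2l11, the killer protein Bim, was at 1.70, 1.76 and 1.86 in MB4, MB5 and MB6, against 1.48, 1.18 and 1.29 in MB1, MB2 and MB3 (change 0.46, adjusted p 0.767), and Bak1, which opens the mitochondrial membrane, overlapped between groups (0.40, 0.848). Bmf overlapped too (−0.32, 0.8), and Hrk was above background in no tumour at 0.2 Gy and in all 3 at 0 Gy, at least 1.7-fold lower (adjusted p 0.83). All 4 code for proteins that promote cell death.

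Of 10 inhibitors of cyclin-dependent kinases and retinoblastoma proteins, 1 had an unadjusted p below 0.05. Cdkn2a, which encodes the tumour suppressors p16 and p19Arf, was at 0.66, 0.34 and −0.91 in MB4, MB5 and MB6, against 1.02, 0.52 and 1.38 in MB1, MB2 and MB3 (change −0.95, SE 0.42, adjusted p 0.853). The groups overlapped, and MB6 was the lowest tumour.

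TGF-beta genes gave 6 of 18 members below an unadjusted p of 0.05 in limma, against 5.75% of all genes. Of the 6, 4 were higher and 2 lower, and the median change of the list was 0.07. Smad3, the transcription factor that carries the TGF-beta signal, was at 1.23, 1.08 and 0.94 in MB4, MB5 and MB6, against 0.34, 0.26 and 0.71 in MB1, MB2 and MB3 (change 0.65, SE 0.12, adjusted p 0.267). A second Smad3 probe had a change of 0.30. Smad7, the inhibitor that TGF-beta induces, was at −3.85, −3.75 and −3.65 at 0.2 Gy, against −3.45, −3.13 and −3.19 at 0 Gy (change −0.49, SE 0.11, adjusted p 0.432).

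The ligands of that pathway went opposite ways without passing. Tgfb3 was at −0.51, −0.08 and −0.02 in MB4, MB5 and MB6, against −0.57, −0.65 and −1.06 in MB1, MB2 and MB3 (change 0.55, adjusted p 0.759), and Tgfb2 at 1.02, 0.75 and 0.75 at 0.2 Gy, against 1.15, 1.24 and 1.71 at 0 Gy (change −0.53, adjusted p 0.767). The groups did not overlap for either ligand, though MB4 and MB1 were nearly level for Tgfb3.

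Notch genes had the highest median of the pathway lists, 0.46 over 14 members, with 12 changes above 0. At an unadjusted p below 0.05 in limma 4 were higher and 1 lower, against 2.85% and 2.89% of all genes. Hey1, a target repressor of Notch, was at 5.28, 5.49 and 5.32 in MB4, MB5 and MB6, against 5.06, 4.69 and 4.86 in MB1, MB2 and MB3 (change 0.49, SE 0.13, adjusted p 0.589). The receptor Notch2 was at 0.35, 0.22 and 0.52 at 0.2 Gy, against 0.06, −0.20 and −0.16 at 0 Gy (change 0.46, adjusted p 0.731). Mfng, a glycosyltransferase that tunes Notch for its ligands, went the other way with 1.40, 1.29 and 0.65 at 0.2 Gy, against 1.99, 1.99 and 2.54 at 0 Gy (change −1.06, SE 0.25, adjusted p 0.475). The ligand Jag1 overlapped between the groups (change 0.81, adjusted p 0.832). The mean over the Notch genes was −0.75, −0.85 and −0.38 in MB4, MB5 and MB6, against −0.79, −0.73 and −1.57 in MB1, MB2 and MB3, so 1 high tumour at 0.2 Gy and 1 low tumour at 0 Gy lay apart from the other 4, which were alike.

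Growth factor and WNT genes had medians near 0. Of 19 IGF, FGF and neurotrophin genes 3 were higher without adjustment and none lower: the receptors Igf1r (change 0.36, adjusted p 0.767), Fgfr1 (0.46, 0.783) and Igf2r (0.60, 0.848). Of 15 WNT genes 3 were higher, the antagonists Sfrp1 and Sfrp2 (0.76, adjusted p 0.83) and the ligand Wnt7b (0.60, 0.855). The medians were 0.10 and 0.03. Of 18 axon guidance genes 1 was higher (Slit1) and 2 lower without adjustment, the semaphorin receptor Nrp2 (−0.62, adjusted p 0.722) and the guidance cue Ntn1 (−0.38, 0.848), with a median of 0.05.

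Interferon and MHC class I genes had 5 of 15 members lower and none higher without adjustment, against 2.89% and 2.85% of all genes. The median change of the list was −0.23. Usp18, a brake on interferon signalling, was at −4.77, −4.47 and −5.64 in MB4, MB5 and MB6, against −3.24, −3.03 and −4.20 in MB1, MB2 and MB3 (change −1.47, SE 0.59, adjusted p 0.82). Usp18 was not well above background in MB6, and its change was −0.87 with normexp. Oas1a and Ifit3, antiviral effectors, had changes of −0.62 and −0.83 (adjusted p 0.83 each), and Ifit1 was at least 1.52-fold lower, since no tumour at 0.2 Gy was above background (0.848). None of these genes passed. The mean over the list was −2.10, −2.10 and −2.06 at 0.2 Gy, against −1.48, −1.41 and −2.03 at 0 Gy: MB3 was level with the 0.2 Gy tumours and only MB1 and MB2 were higher.

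Stress and metabolic lists showed few single genes. Of 15 heat shock and unfolded protein genes 2 were lower without adjustment, the near-identical Hspa1a (change −0.95, adjusted p 0.855) and Hspa1b (−0.90, 0.848), whose probes may read both copies, with a list median of −0.003. Of 12 immediate early genes Fosb alone was lower without adjustment (adjusted p 0.773; list median −0.18). Fosb was well above background in 1 of 3 tumours at 0.2 Gy and in 2 of 3 at 0 Gy, and its change of −0.78 was −0.34 with normexp, so its size is uncertain. No member of the lists of NRF2 and oxidative stress (15 tested, median 0.05), hypoxia and glycolysis (14, −0.14), cholesterol synthesis (13, −0.11), inflammatory cytokines (13, 0.20) or imprinted genes (14, −0.02) had an unadjusted p below 0.05.

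**Figure D3:**
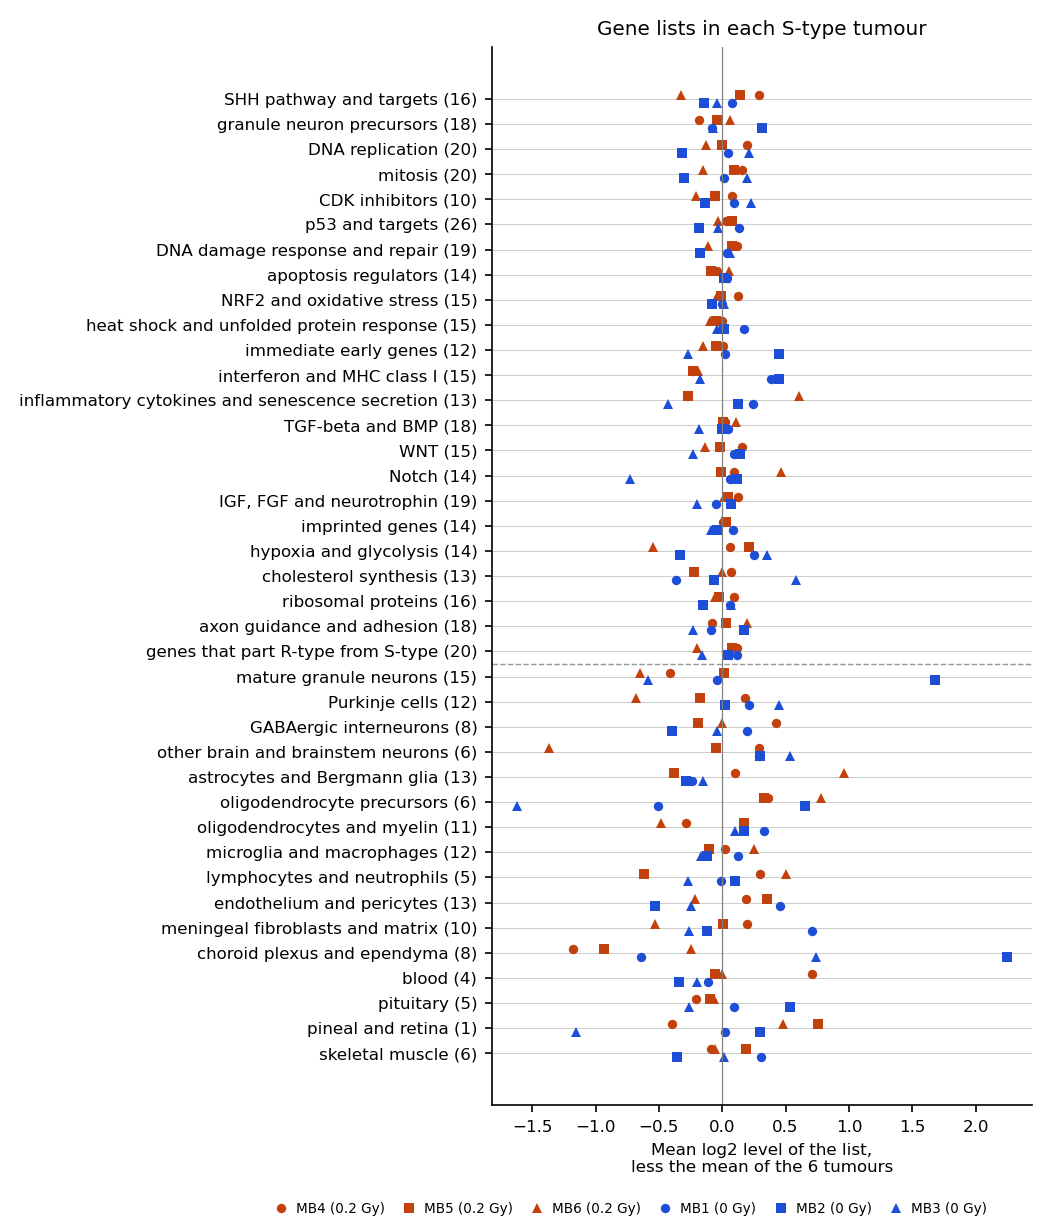
Mean log2 level over the tested members of each list (number in brackets), less the mean of the 6 tumours, for the S-type tumours at 0.2 Gy (orange, upper points) and 0 Gy (blue, lower points); pathway lists stand above the dashed line and cell type markers below it. The cell cycle and repair lists lie within a narrow band, while MB2 at 0 Gy stands far to the right for choroid plexus and for mature granule neurons, and MB3 far to the left for oligodendrocyte precursors.

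Markers of other cells differed between single tumours within a dose. In such bulk samples fewer cells of a type and less RNA per cell cannot be told apart. Choroid plexus and ependymal markers had 4 of 8 tested members lower at 0.2 Gy and none higher at an unadjusted p below 0.05 in limma. Over all genes 2.89% were lower and 2.85% higher. The median change of these markers was −1.47. Their mean level was −4.39, −4.15 and −3.46 in MB4, MB5 and MB6, against −3.85, −0.96 and −2.48 in MB1, MB2 and MB3, so only MB2 and MB3 were high. The number of markers well above background was 5, 6 and 5 of 8 at 0.2 Gy, against 6, 8 and 7 at 0 Gy.

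Single choroid plexus genes showed which tumours carried this signal. Ttr, the thyroid hormone carrier that choroid plexus secretes, was well above background in MB2 (−0.05) and MB3 (−2.06) and in no other S-type tumour, so that it was at least 4.51-fold lower at 0.2 Gy with an adjusted p of 0.767. Kcne2, a potassium channel subunit, was likewise above background in 2 of the 0 Gy tumours only, −1.40 in MB2 and −3.01 in MB3 (at least 3.59-fold lower at 0.2 Gy, adjusted p 0.772). Clic6, of the chloride channel family, was at −1.33, −2.15 and −1.81 at 0.2 Gy, against −0.21, 0.54 and 2.44 at 0 Gy (change −2.69, SE 0.61, adjusted p 0.439), and a second Clic6 probe gave −2.64. Folr1, a folate receptor of the same tissue, was at −5.05, −4.97 and −5.15 at 0.2 Gy, against −4.82, −0.78 and −2.81 at 0 Gy (adjusted p 0.767), with MB1 beside the 0.2 Gy tumours. Clic6 and Folr1 are also among the 24 genes named above, and the part of these markers in the group difference was not tested.

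Mature granule neuron markers had 14 of 15 changes below 0 and a median of −0.59, with 1 below an unadjusted p of 0.05. Their mean level was −2.13, −1.70 and −2.37 in MB4, MB5 and MB6, against −1.76, −0.04 and −2.30 in MB1, MB2 and MB3, and 3.07 to 3.27 in normal cerebellum. MB2 alone was high. Slc17a7, the vesicular glutamate transporter, was at −5.33, −5.55 and −7.14 at 0.2 Gy, against −2.78, −1.99 and −5.80 at 0 Gy (change −2.48, SE 0.94, adjusted p 0.793). Slc17a7 was not well above background in MB6 or MB3, so the size of its change is uncertain, and with normexp background correction it was −1.46. Snap25, a synaptic vesicle fusion protein, was at −1.46, −1.41 and −1.79 at 0.2 Gy, against −1.32, 0.27 and −1.39 at 0 Gy.

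Oligodendrocyte precursor markers had 6 of 6 changes above 0, a median of 0.95 and 1 member with an unadjusted p below 0.05. Olig1, their transcription factor, was at 2.51, 2.35 and 2.79 in MB4, MB5 and MB6, against 1.60, 2.59 and −0.31 in MB1, MB2 and MB3 (change 1.26, SE 0.54, adjusted p 0.848). MB2 lay within the 0.2 Gy values and MB3 was far below them. Pdgfra, the growth factor receptor of these precursors, had instead its highest value in MB3, 3.01. Mature oligodendrocyte markers (11 tested) had a median of −0.25 and none with an unadjusted p below 0.05.

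Markers of GABAergic interneurons had 2 of 8 members higher and 1 lower without adjustment. Gad2, which makes GABA, was above background in 2 of 3 tumours at 0.2 Gy and in none at 0 Gy, at least 1.18-fold higher (adjusted p 0.767), whereas the transcription factor Lhx1 was at 3.47, 2.94 and 3.31 at 0.2 Gy, against 3.89, 3.72 and 3.75 at 0 Gy (change −0.55, adjusted p 0.516). The list median was −0.06.

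Astrocyte and Bergmann glia markers (13 tested, median 0.38) had Hes5 alone higher without adjustment, at 0.54, 0.03 and 2.69 in MB4, MB5 and MB6, against −0.44, 0.20 and −0.65 in MB1, MB2 and MB3 (adjusted p 0.864), with MB6 highest. Purkinje cell markers (12, median −0.19) had 2 lower without adjustment, Slc1a6 (−0.55, adjusted p 0.845) and Ppp1r17 (−1.83, 0.848). Ppp1r17 was not well above background in MB6, and its change was −0.96 with normexp. The lists of endothelium and pericytes (13 tested, median 0.19), microglia and macrophages (12, 0.16), meningeal fibroblasts and matrix (10, −0.19), other brain neurons (6, −0.60), skeletal muscle (6, 0.08), lymphocytes and neutrophils (5, 0.18), pituitary (5, −0.14), blood (4, 0.61) and pineal and retina (1, 0.56) had no member below an unadjusted p of 0.05.

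Chromosome 6 differed between tumours as a whole. Its 581 genes with a symbol that were well above background on all 6 S-type arrays were taken, each less its mean over the 6 tumours. Their median level was set against that of genes of the same filter on all other chromosomes. The difference was 0.03, −0.006 and −0.33 in MB4, MB5 and MB6, against 0.03, −0.08 and 0.35 in MB1, MB2 and MB3. MB6 at 0.2 Gy was low and MB3 at 0 Gy was high, and the other 4 tumours lay near 0. Of 19 other chromosomes, none of the 6 tumours had a median outside −0.04 to 0.10, the highest being chromosome 14 in MB2.

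This held along the chromosome. With these 581 genes split by chromosome order into 3 equal stretches, MB6 was at −0.35, −0.32 and −0.35 and MB3 at 0.35, 0.37 and 0.35. MB3 had the highest level of the 6 tumours for 66.8% of these chromosome 6 genes, and MB6 the lowest for 63.0%. On the other chromosomes MB3 was highest for 24.2% (chromosome 14) to 38.2% (chromosome 13) of genes. MB6 was lowest there for 12.4% (chromosome 17) to 21.4% (chromosome 12). The R-type tumours had chromosome 6 values from −0.15 to 0.07. The 3 normal cerebella, which are another tissue, had −0.35, −0.30 and −0.34, so MB6 was level with them. On the other chromosomes the normal cerebella ran from −0.20 (chromosome 13) to 0.18 (chromosome 15). What sets these chromosome 6 values was not tested.

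MB6 and MB3 are tumours of opposite doses, and the comparison of the doses holds both. The median change of the 581 chromosome 6 genes was −0.18, against 0.02 for genes of the same filter on the others. Of the 581, 46 (7.92%) were lower and 5 higher at an unadjusted p below 0.05 in limma. On the other chromosomes 1.09% (chromosome 16) to 3.57% (chromosome 12) of the genes of that filter were lower. Over all tested genes, without that filter, 2.89% were lower and 2.85% higher. Without MB6 and MB3 the difference between chromosome 6 and the rest was 0.04 in place of −0.20; these tumours were left out because of their chromosome 6 values, so that figure describes the same observation and is no test of it. Atp2b2, a calcium pump of neurons on chromosome 6, was at 3.07, 2.98 and 2.71 at 0.2 Gy, against 3.67, 4.26 and 4.02 at 0 Gy (change −1.06, SE 0.17, adjusted p 0.164), so its highest tumour was MB2 and not MB3. Zic2 lies on chromosome 14, Tlx3 on 11, Cbs on 17, Gstt1 on 10 and Smad3 on 9.

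**Figure D4:**
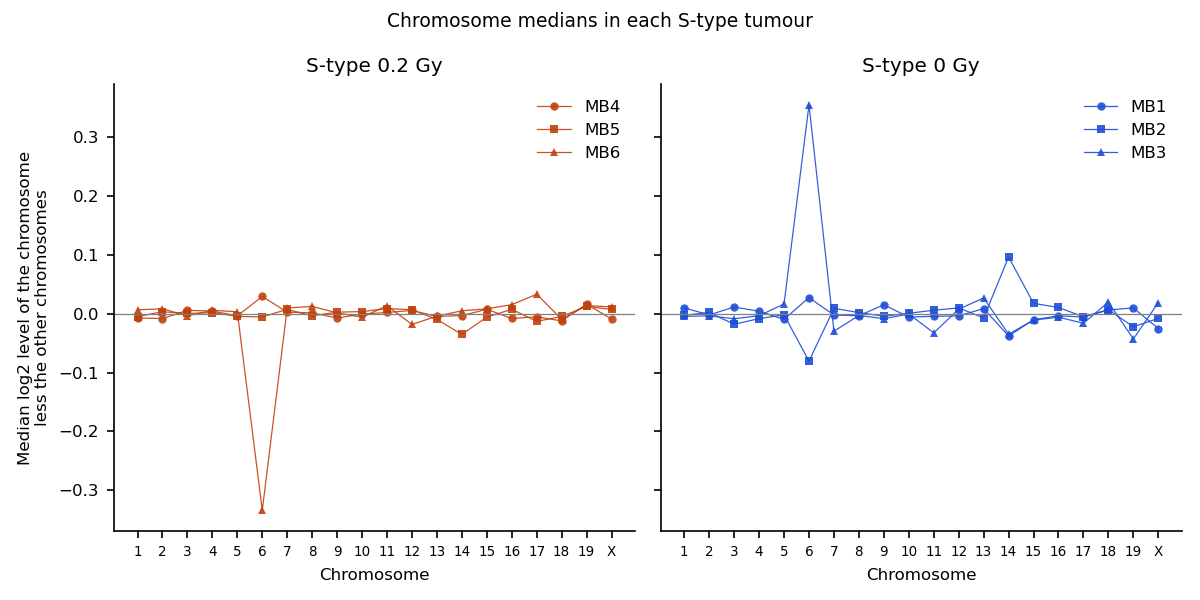
Median log2 level, for each chromosome, of the genes with a symbol that were well above background on all 6 S-type arrays. Each gene is taken less its mean over the 6 S-type tumours, and the same median over all other chromosomes is subtracted (y axis). Tumours at 0.2 Gy are on the left and those at 0 Gy on the right. Chromosome 6 stands at −0.33 in MB6 and at 0.35 in MB3, and no other chromosome passes 0.10 in size.

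The 20 genes that part the R-type from the S-type tumours, a list chosen on these samples, were read within the S-type for a link to dose. Of the 20, 3 were higher and 2 lower at 0.2 Gy without adjustment, none passed, and the median change was 0.09. Over all tested genes 2.85% were higher and 2.89% lower without adjustment. For Smad3, S-type tumours had 1.08 ± 0.14 at 0.2 Gy and 0.44 ± 0.24 at 0 Gy, beside 1.22 ± 0.02 and 1.58 ± 0.07 in R-type tumours after 0.2 Gy and 1.5 Gy. For Tgfb3 the S-type means were −0.21 ± 0.26 at 0.2 Gy and −0.76 ± 0.26 at 0 Gy, beside 0.46 ± 0.28 and 0.44 ± 0.14 in R-type tumours after 0.2 Gy and 1.5 Gy (SD, n = 3 each). In both genes the 0.2 Gy S-type mean lay between the other S-type mean and the R-type means. Smad3, Tgfb3, Tgfb2, Cdkn2a and Fancc were the members of the list with an unadjusted p below 0.05 between the doses in limma. The list was chosen by type and these members by dose, so the order of their means is no test of a link.

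Tgfb2 and Cdkn2a had the same order with the sign turned. Tgfb2 averaged 0.84 ± 0.15 at 0.2 Gy and 1.37 ± 0.30 at 0 Gy in S-type tumours, beside −0.42 ± 0.33 and −0.03 ± 0.09 in R-type tumours after 0.2 Gy and 1.5 Gy. Cdkn2a averaged 0.03 ± 0.83 at 0.2 Gy and 0.98 ± 0.43 at 0 Gy in S-type tumours, beside −1.85 ± 0.65 and −2.74 ± 0.47 in R-type tumours after 0.2 Gy and 1.5 Gy (SD, n = 3 each). Fancc did not follow this order, with −0.22 ± 0.06 at 0.2 Gy and −0.52 ± 0.12 at 0 Gy in S-type tumours and lower means of −1.42 ± 0.05 and −1.09 ± 0.26 in R-type tumours after 0.2 Gy and 1.5 Gy (SD, n = 3 each).

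The genes that part the types most had no clear difference between the doses, but many of these changes were imprecise. Of the 20 genes of the list, 8 had a 95% interval within 1 log2 unit of 0, and the bounds reached −3.01 and 3.63. Plagl1, an imprinted zinc-finger gene, averaged −0.94 ± 0.30 at 0.2 Gy and −0.99 ± 0.45 at 0 Gy in S-type tumours (SD, n = 3 each; change 0.05, 95% interval −0.63 to 0.72), far below the R-type means of 1.94 after 0.2 Gy and 1.56 after 1.5 Gy. The changes were −0.01 for Bend7, 0.13 for the growth factor Mdk, 0.17 for the Notch ligand Dll3, 0.36 for Mab21l2, −0.16 for Trim55, −0.49 for Frmd5 and −0.52 for the pituitary hormone gene Prl, with adjusted p of 0.999 each in limma. Igf2, a growth factor of SHH tumours, had a change of 0.35 (0.999), and Hhip, a decoy receptor of SHH, 0.33 (0.977). Mgarp, Dmrta1 and Sox4 had changes of 0.68, −0.98 and −0.29 (adjusted p 0.932, 0.954 and 0.96 in limma). For Dmrta1 and Sox4 the groups did not overlap. Of the 20 genes of the list, 3 were higher and 3 lower at 0.2 Gy without overlap, against 4.6% and 3.8% of all tested genes.

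**Figure D5:**
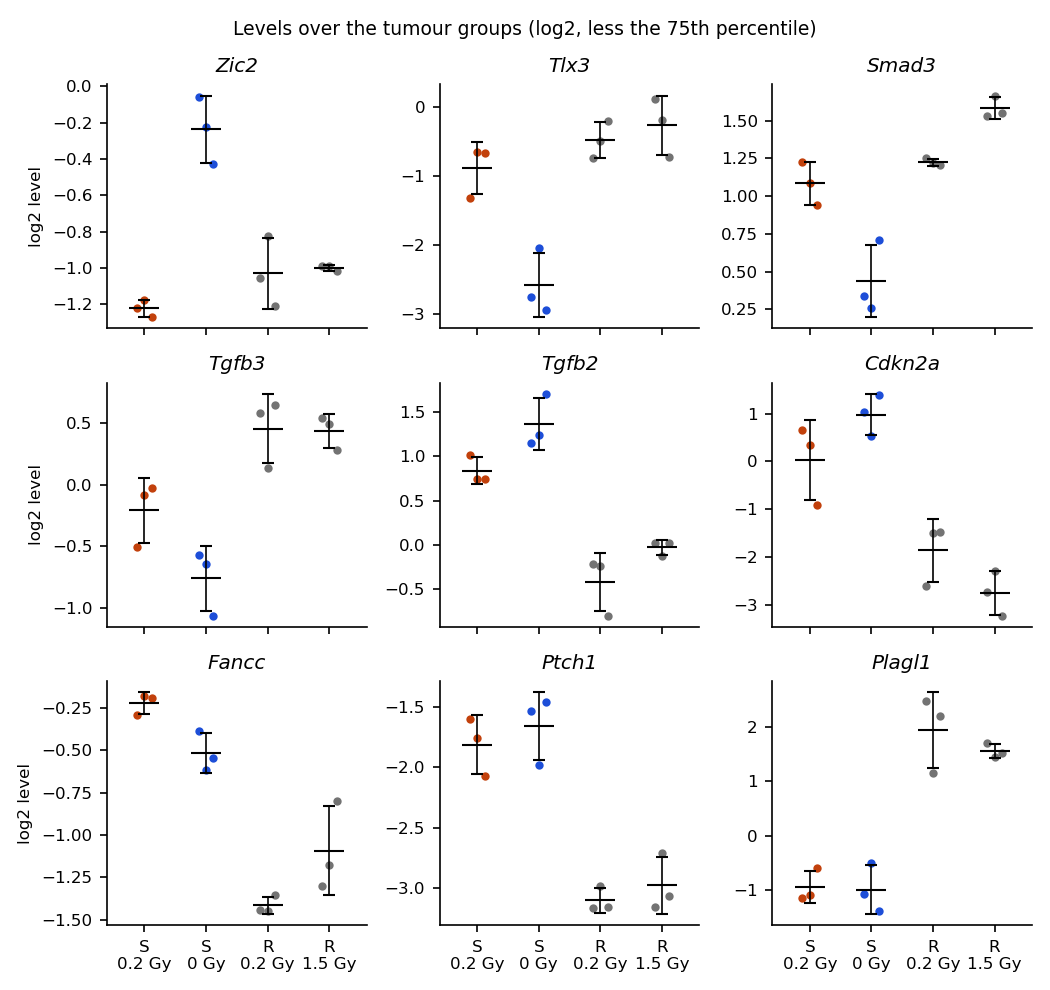
Log2 levels (y axis, scale differs by panel and does not start at 0) of 9 genes in S-type tumours at 0.2 Gy (orange) and 0 Gy (blue) and in R-type tumours after 0.2 Gy and 1.5 Gy (grey); points are tumours, bars the mean and SD (n = 3). Zic2, Tlx3 and Smad3 at 0.2 Gy lie nearer to the R-type levels than those at 0 Gy do, while Ptch1 and Plagl1 are alike at both S-type doses and apart from the R-type. Zic2, Tlx3 and Smad3 were picked for their difference between the doses.

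Some genes that varied widely among the 6 tumours, picked after their values were seen, overlapped between the doses. Rprml was at 2.72, 3.30 and 2.22 in MB4, MB5 and MB6, against 2.42, −2.46 and −1.01 in MB1, MB2 and MB3, so that MB1 sat with the 0.2 Gy tumours. Foxd1, a forkhead transcription factor, was highest in MB6 (2.59) and lowest in MB3 (−3.75). Gpr17, a receptor of oligodendrocyte precursors, was highest in MB2 (4.03) and lowest in MB3 (−1.23). Fgfr4, a growth factor receptor, was at −0.99, 1.05 and 2.60 at 0.2 Gy, against −1.13, 0.09 and −2.53 at 0 Gy.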

How the data were processed

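RNA of 12 medulloblastomas and 3 normal cerebella was measured on 15 one-colour arrays, in 5 groups of 3 by the labels. Members of this comparison and all gene lists were chosen with earlier results of these data known. The deposited array files hold spot intensity on a linear scale, background-subtracted and spatially detrended per the file headers, extracted with Agilent Feature Extraction (version 9.5.1, per the submitters' processing notes). The deposited series table holds log2 values whose making is not given in the sources used here. Array-to-array differences in it had correlations of 0.99986 to 0.99996 with the same differences of the scaled signals, and its MB1 and MB2 columns sum to 0, so it is centred on these 2; it served as an alternative.

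The log2 processed signal less the 75th percentile of each array was used. Control spots and 76 of 41174 probes with outlier flags were left out, and 24800 probes were named by RefSeq accession (17158 symbols); the others kept their accession. For each name the probe of highest mean over 15 arrays was taken. limma 3.58.1 in R 4.3.3 fitted the 5 groups (10 residual and 1.71 prior degrees of freedom), with two-sided tests and Benjamini-Hochberg adjustment over all 21661 genes; tables were made in Python 3.11.15. The method was tested on simulated data. Named genes were Ptch1, the 12 highest and 12 lowest changes (those passing first, then unadjusted p below 0.01) with non-overlapping groups and the higher group above background, up to 4 members of each list by p, the type-parting list and the sex check; others are marked or are defining members (Atoh1, Mki67, Gli1, Mycn, Trp53, Cdkn1a, Atm). Lists are described by counts and medians; some of their members are not reported here. "At least" folds are for genes above background in no tumour of 1 group: the signals of that group are raised to the dimmest probe that was well above background on the same array, and the other group keeps its measured mean over all 3 tumours. Slide and scan coincide: slide 1 held MB6 and MB2, slide 4 MB5 and MB1, and the other S-type arrays stood without the other dose. Alternatives changed background correction, scaling, input, filter, arrays fitted, slide block, array weights, probe choice and left out each tumour.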

Additional observations from a re-analysis of the deposited data

How the results depend on the processing

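The number of called genes, 1 as reported, was 1 with normexp background correction (lowest adjusted p 0.0303) and with probes above background on all 6 S-type arrays (0.0223), Zic2 in both. It was 2 with quantile normalization (Cbs higher, Zic2 lower), 3 with the deposited series table (Cbs higher, Zic2 and AK013746 lower), and 0 without scaling (lowest adjusted p 0.0596), without a filter on dim probes (0.0924), with only the 6 S-type arrays (0.94), with only the 12 tumour arrays (0.167), with slide as a block (0.146), with array weights (0.0702) and with every probe tested on its own (0.0553). With each tumour left out it ranged from 0 to 17: 0 without MB4 or MB6, 2 without MB5 (Igsf23 and AK013746, lower), 17 without MB1, 1 without MB2 (Zfp120, higher) and 1 without MB3 (Zic2). With chromosome 6 genes left out of the adjustment, chosen after seeing the data, it was 3, since fewer genes were tested. Apart from that last setting the cause of these shifts was not tested. The median change of all genes moved to 0.09 without scaling, and the share of genes with an unadjusted p below 0.05 ranged from 3.43% to 9.82%. The chromosome 6 difference of −0.20 became 0.038 without MB6 and MB3, which were picked for their chromosome 6 values. With normexp the change was smaller by over 1.5 times for Dok7 (0.78), Ephb4 (0.62), Wnt7b (0.32), Dmrta1 (−0.57), Hspa1b (−0.55), the genes given as bounds and those so noted above. The same held for Edaradd, at −2.51 in the main fit and −1.38 with normexp. No paired analysis was possible because the 2 S-type groups share no replicate numbers in the labels; the block that could be fitted was the slide, given above. Signal over background limits genes such as Cbs, Ttr and Trpm3 to bounds, and with 3 tumours a group the interval stayed within 1 log2 unit for 79.2% of genes.

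Over the 16 alternatives and the 96 genes whose change is in the text, 1461 of 1522 values kept their sign and their side of the threshold, 10 lost the call (Zic2), 11 gained one (Cbs with quantile normalization and with the series table, the others without MB1) and 40 changed sign, none of these in a gene that was called. All of them had an unadjusted p above 0.3 as reported. They were Mycn 0.0043 and Trp53 0.0078 with normexp; Mycn 0.061, Atoh1 0.061, Zic4 0.041, Trp53 0.078 and Bend7 0.079 without scaling; and Bend7 0.031 with quantile normalization. With array weights they were Mycn 0.057, Atoh1 0.080, Plagl1 −0.028, Bend7 0.15, Mdk −0.13 and Trim55 0.17, and with slide as a block Atoh1 0.034, Plagl1 −0.082, Bend7 0.11 and Trim55 0.028. With each tumour left out in turn the change spanned 0 for Gli1 (−0.14 to 0.23), Mycn (−0.083 to 0.026), Atoh1 (−0.48 to 0.33), Trp53 (−0.084 to 0.073), Cdkn1a (−0.14 to 0.53), Plagl1 (−0.15 to 0.29), Bend7 (−0.13 to 0.20), Mdk (−0.995 to 0.69), Dll3 (−0.33 to 0.81), Trim55 (−0.98 to 0.65), Prl (−1.43 to 0.48), Igf2 (−0.33 to 0.999) and Hhip (−0.086 to 0.67). Of 638 list medians under an alternative, 627 moved by less than the spread between tumours.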
